A study of Saccharomyces cerevisiae with 8 samples.

Results

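The mitochondrial ribosomal protein genes are nuclear genes for the proteins of the ribosome inside mitochondria. They were taken here as every gene of the array whose 1 annotated symbol is MRPL, MRPS or RSM followed by a number. The rule gave 54 of the 5656 genes with a probe set of their own, 34 for the large subunit (MRPL) and 20 for the small subunit (MRPS and RSM). Other proteins of the same ribosome carry other symbols, such as MRP2 or IMG1, and are described separately. A gene MRPL12 was not found under that symbol.

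The mitochondrial ribosome descends from a bacterial ribosome and translates the few messages of the mitochondrial genome, most of which encode subunits of the respiratory chain and the ATP synthase. Nearly all of its proteins are made in the cytosol and imported, and its ribosomal RNAs come from the mitochondrial genome. Yeast cells that lose the function of this ribosome cannot respire, and many such mutants also lose their mitochondrial DNA. Heme is a cofactor of the respiratory complexes and, in yeast, a signal of oxygen that acts through the activators Hap1 and the Hap2/3/4/5 complex. Puf3, an RNA-binding protein, is known to bind many messages of mitochondrial ribosomal proteins.

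Transcript levels were measured with 8 Affymetrix YG_S98 arrays, 1 per sample, in 4 groups of 2. The first pair of groups is a strain labelled hem1 delta, which lacks the gene for the first enzyme of heme synthesis and makes heme only when given that enzyme's product, 5-aminolevulinic acid (ALA). This strain was grown in rich medium (YPD) with 250 µM ALA for 6 h, washed, and put in duplicate into 15 ml cultures without ALA or with ALA for 16 h. The second pair is a strain labelled wild type and written BY45742, grown for 6 h in YPD and then for 12 h in 15 ml in hypoxia, made with an anaerobic chamber, or in normoxia. The strains, the times and the ALA thus differ between the pairs, and the sources used here do not say whether the strains share a background. For the wild type, nothing states separate cultures within a group, so a p-value reflects only how these samples spread, possibly for technical reasons.

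Values are MAS5 signals, 1 per probe set, scaled so that the trimmed mean of every array lies between 500.42 and 500.58. Array medians ran from 98.1 to 158.8, and the number of arrays limits the precision. The HEM1 probe set had signals of 849 and 696 without ALA, 459.7 and 608 with ALA, 1413 and 1613 in hypoxia and 707 and 683 in normoxia. Its position against the deletion is not known, so it is no check of the labels. On 1 array without ALA and 1 hypoxia array a probe set for 18S ribosomal RNA read 3507 and 10736, against 115 to 355 on the other 6, and the ratio of the 3′ to the 5′ probe set of ACT1 ran from 1.77 to 2.18 under both treatments and from 1.40 to 1.86 in their controls. The part of these differences in the results was not tested, beyond the values given without the 2 arrays. A signal is also a share of the RNA on its array, so fewer messages per cell and a larger amount of other RNA cannot be told apart.

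All 54 genes passed the filter on low signals. On single arrays the median signal of the 54 was 356 and 347 without ALA, 419 and 481 with ALA, 345 and 345 in hypoxia and 332 and 330.0 in normoxia. Set against the median of all genes on the same array, that is 0.13 and 0.07 higher on the log2 scale without ALA, 0.71 and 0.86 higher with ALA, 0.25 and 0.19 higher in hypoxia and 0.50 and 0.43 higher in normoxia. Both treated groups thus lay nearer to the array's other genes than their controls did, and no array of a treated group reached an array of its control. In hypoxia the median of the 54 was itself not below that in normoxia, while the log2 median of all genes was higher (8.18 and 8.24, against 7.88 and 7.94). Without ALA the median of the 54 was lower and that of all genes higher (8.34 and 8.36, against 8.00 and 8.05 with ALA). The heat map shows the signals of the 54 genes alone, gene by gene.

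**Figure D1:**
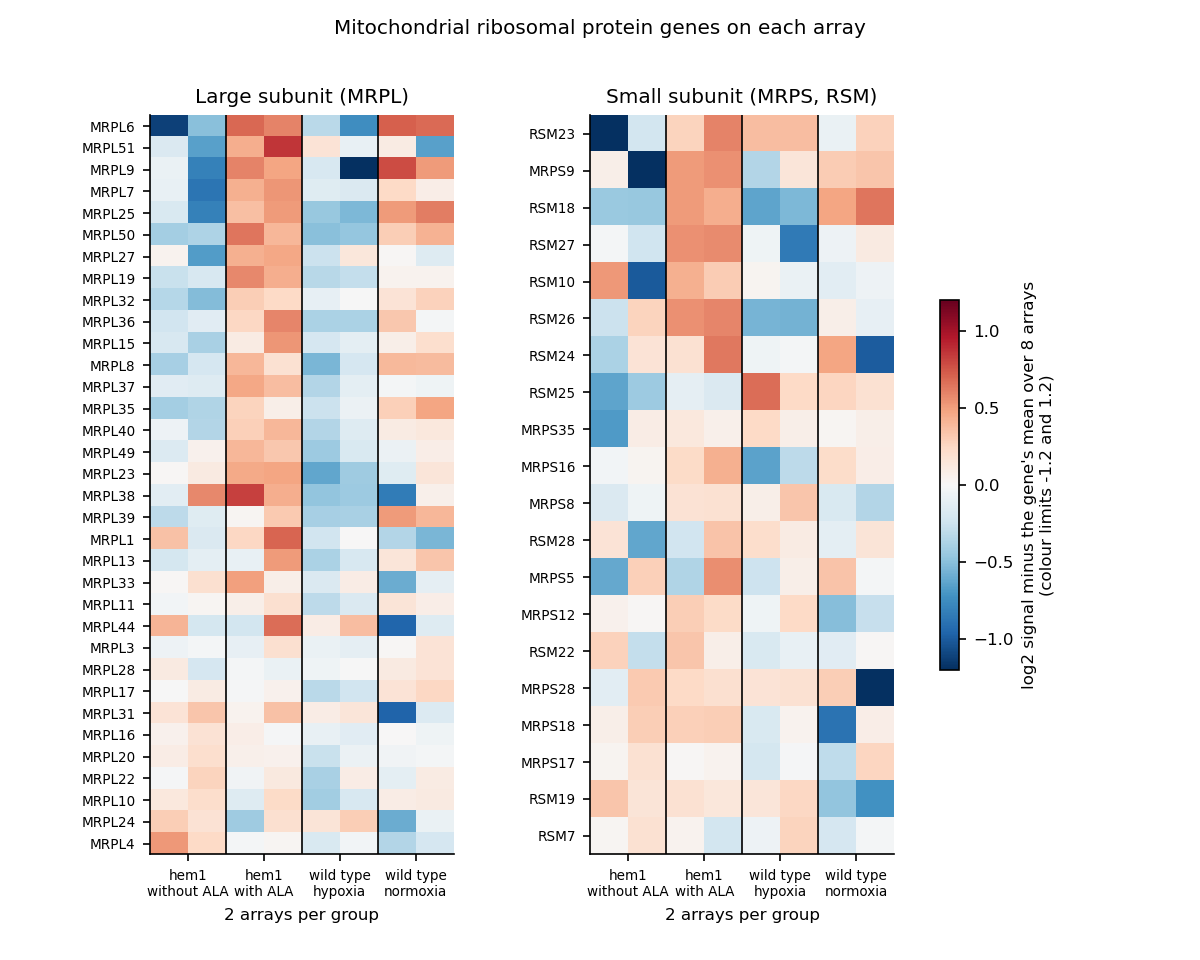
Signal of each of the 54 mitochondrial ribosomal protein genes on each of 8 arrays, as log2 signal minus that gene's mean over the 8 arrays (blue below, red above; the colours stop at -1.2 and 1.2), with genes ordered within each subunit by their log2 difference between hem1 without and with ALA. Genes at the top, such as MRPL6, MRPL9, MRPL25 and RSM18, are blue without ALA and in hypoxia and red with ALA and in normoxia.

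The first comparison asks what withholding heme does to these messages. Without ALA, 19 of the 54 genes fell and none rose, by limma with Benjamini-Hochberg adjustment over all probe sets tested at an adjusted p of 0.05. Of all 5283 genes tested, 19.0% fell and 31.2% rose by the same rule, against 35.2% and 0% of the 54. Their median log2 difference was -0.39, against 0.16 for all genes, and 51 of the 54 lay below that median. For 30 of the 54 both arrays without ALA lay below both with ALA, which held for 31.7% of all genes. For 2 genes, MRPL4 and MRPL20, both arrays without ALA lay above, which held for 45.8% of all genes. Beside the 0 rises, no gene of the 54 had an unadjusted p under 0.05 as a rise, which 1847 of all 5283 genes had.

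In the large subunit 15 of 34 genes (44.1%, against 19.0% of all genes) fell without ALA, with a median log2 difference of -0.40. MRPL6 encodes the homolog of bacterial L6 (RefSeq synonym uL6m), a protein near the site where translation factors bind. It had signals of 86.6 and 133 without ALA, against 304 and 285 with ALA. The groups are far apart, a 2.74-fold fall (log2 difference -1.46, SE 0.24, adjusted p = 0.00169). MRPL25 (mL59), a protein without a bacterial counterpart, was at 625 and 405 without ALA and at 910.3 and 1011 with ALA. It fell 1.91-fold (log2 -0.93, SE 0.21, adjusted p = 0.00716), although the arrays without ALA lay apart from each other. MRPL50, the homolog of L9, was dimmer, with 56.5 and 57.9 without ALA, against 117 and 98.6 with ALA. Its fall was 1.88-fold (adjusted p = 0.00717; 0.0545 once both arrays bright for 18S were dropped).

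MRPL51 (mL43), another protein of the mitochondrial ribosome alone, had 315 and 226 without ALA, against 479 and 644 with ALA. That is a 2.08-fold fall (adjusted p = 0.0159). MRPL7, the homolog of L5, a protein of the central protuberance, fell 1.96-fold, with 237 and 137 without ALA and 340.0 and 365 with ALA (adjusted p = 0.0123). In both genes the 2 arrays without ALA lay well apart from each other, and neither call held without replicate 2 of either hem1 group. MRPL9, the homolog of L3, was at 510.5 and 308 without ALA and at 816 and 750.1 with ALA. Its 1.97-fold fall only just passed (adjusted p = 0.0495, and up to 0.250 when single arrays were left out).

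MRPL32, the homolog of bacterial L32, is known for being cut by the m-AAA protease before it joins the ribosome. Its signals of 425 and 375 without ALA lay below the 663 and 635 with ALA, a 1.62-fold fall (log2 -0.70, SE 0.15, adjusted p = 0.0058). MRPL19, the homolog of L11 at the base of the ribosomal stalk, had 190.0 and 200.2 without ALA, against 341 and 309 with ALA. This 1.66-fold fall (adjusted p = 0.00541) stood on arrays that agreed within each group. MRPL37 (mL54) had 1515 and 1492 without ALA and 2285 and 2147 with ALA, a 1.47-fold fall (adjusted p = 0.0120). The other large subunit genes that fell were MRPL27, MRPL15, MRPL36, MRPL8, MRPL35 and MRPL40, with log2 differences from -0.76 to -0.55.

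In the small subunit 4 of 20 genes fell without ALA, with a median log2 difference of -0.31. That share, 20%, is near the 19.0% of all genes and below the 44.1% of the large subunit. RSM18, the homolog of bacterial S18, had 457 and 455 without ALA, against 890.5 and 846 with ALA. The arrays of each group nearly coincide, and the fall was 1.90-fold (log2 -0.93, SE 0.15, adjusted p = 0.00134). MRPS9, the homolog of S9, whose tail reaches the peptidyl site in bacteria, had 519.9 and 166 without ALA and 707 and 722 with ALA. This call (log2 -1.28, SE 0.44, adjusted p = 0.0408) leans on the second array without ALA and was lost without it.

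RSM23 (mS29), the yeast counterpart of the human protein DAP3, had 14.5 and 37.1 without ALA, both below the 30th percentile of their arrays, against 52.2 and 65.2 with ALA. The signals put it at least 1.22-fold lower without ALA (adjusted p = 0.0306), where the bound takes the percentile in place of a lower signal. The call was lost when signals were held at that percentile (log2 -0.29, adjusted p = 0.217). RSM26 (mS42), related to manganese superoxide dismutases, had 264 and 379 without ALA and 461 and 474 with ALA (log2 -0.56, adjusted p = 0.0445). This call was lost with no low-signal filter (adjusted p = 0.0536), no intensity trend (0.0555) and only the arrays of the comparison (0.0755). The log2 difference was -0.30 without replicate 1 of the arrays without ALA. RSM7, the homolog of S7, had 1689 and 1880.0 without ALA, against 1712 and 1428 with ALA, so its groups overlap (log2 0.19, SE 0.17, adjusted p = 0.396).

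The count of 19 depended on single arrays: it was 11 without replicate 2 of the arrays without ALA, 11 without replicate 1 of those with ALA and 9 without replicate 2 of those with ALA. MRPL6, MRPL19, MRPL25, MRPL32 and RSM18 stayed called in every alternative that was run.

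**Figure D2:**
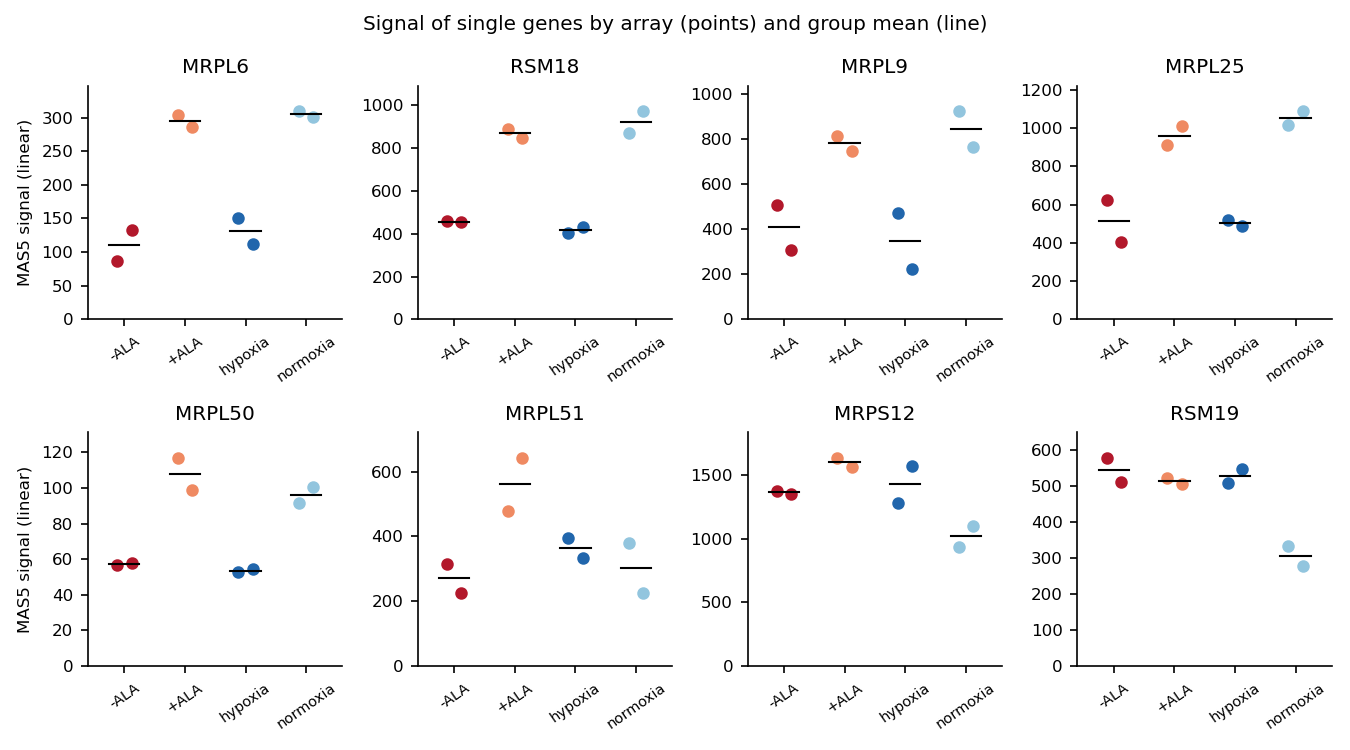
MAS5 signal (linear, y axis from 0) of 8 genes on each array (points) with the group mean (line) for hem1 without ALA (-ALA), hem1 with ALA (+ALA), hypoxia and normoxia. The first 5 genes are lower on every treated array than on its controls, MRPL51 is so without ALA only, and MRPS12 and RSM19 are lowest in normoxia.

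The second comparison asks what hypoxia does to the same messages in the wild type strain. In hypoxia 13 of the 54 genes fell and 3 rose, while 25.2% of all genes fell and 31.4% rose. The share of the 54 that fell, 24.1%, is near that of all genes, and the share that rose, 5.56%, is below it. The shares that fell depended on the scaling. They were 48.1% of the 54 against 33.4% of all genes after quantile normalization, and 13% against 18.7% with spike scaling. As deposited, the median log2 difference of the 54 was -0.17, against 0.12 for all genes, and 37 of the 54 lay below that median. Both hypoxia arrays lay below both normoxia arrays for 28 genes and above them for 10, against 36.2% and 43.9% of all genes.

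In the large subunit 10 of 34 genes fell in hypoxia and none rose, and the median log2 difference was -0.31. The share that fell, 29.4%, is near the 25.2% of all genes, of which 31.4% rose. MRPL6 had 151 and 112 in hypoxia, against 309.8 and 301 in normoxia. It fell 2.35-fold (log2 -1.23, SE 0.24, adjusted p = 0.00304). MRPL9 had 473 and 222 in hypoxia and 926 and 766 in normoxia, the largest estimate of the 54 in this comparison (log2 -1.38, SE 0.36, adjusted p = 0.0111), with hypoxia arrays far from each other and an adjusted p of 0.0714 without replicate 2 of hypoxia. MRPL25 fell 2.09-fold, with 519 and 488 in hypoxia and 1014 and 1089 in normoxia (adjusted p = 0.00315).

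MRPL39, the homolog of the small zinc-binding protein L33, had 1301 and 1309.7 in hypoxia, against 2451 and 2254 in normoxia. It fell 1.80-fold (log2 -0.85, SE 0.16, adjusted p = 0.00208). MRPL8, the homolog of L17, had 518 and 659 in hypoxia, against 990.3 and 988 in normoxia, a 1.69-fold fall (adjusted p = 0.00668). MRPL50 fell 1.79-fold, with 52.8 and 54.4 in hypoxia and 91.8 and 100.3 in normoxia (adjusted p = 0.00876; 0.0550 once both arrays bright for 18S were dropped). The remaining large subunit falls were MRPL35, MRPL36, MRPL23 and MRPL17, with log2 differences from -0.54 to -0.48, and none of these 4 calls held without replicate 1 of hypoxia.

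The 20 small subunit genes split, with 3 falls (15%, against 25.2% of all genes), 3 rises (15%, against 31.4%) and a median log2 difference of 0.12. RSM18 had 403 and 430.1 in hypoxia, against 869 and 972 in normoxia. It fell 2.21-fold (log2 -1.14, SE 0.15, adjusted p = 0.00034), the smallest adjusted p of the 54. MRPS16, the homolog of S16, had 962 and 1207 in hypoxia, against 1739 and 1585 in normoxia (log2 -0.62, adjusted p = 0.0118; 0.0761 or less when single arrays were left out). RSM26 had 215 and 213 in hypoxia and 332 and 296 in normoxia, a fall (log2 -0.55, adjusted p = 0.0431) that was kept in 2 of 8 fits without 1 array.

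RSM19, the homolog of S19 in the head of the small subunit, rose 1.74-fold in hypoxia, with 509 and 547 in hypoxia and 332 and 277 in normoxia (log2 0.80, SE 0.17, adjusted p = 0.00382; 0.164 with arrays centred on their medians). MRPS12, the homolog of S12 at the decoding centre, had 1282 and 1572 in hypoxia, against 937 and 1102 in normoxia. Its rise (log2 0.48, SE 0.16, adjusted p = 0.0323) turned to -0.01 with median centring. MRPS8, the homolog of S8, had 280.1 and 337 in hypoxia and 235 and 209 in normoxia (log2 0.47, adjusted p = 0.0439), which turned to -0.02 with that centring. MRPS12 and RSM19 are neighbours in the gene annotation. MRPS12 had 1376 and 1349 without ALA, against 1636 and 1565 with ALA, and RSM19 had 579.5 and 512 without ALA and 523 and 505 with ALA, and neither passed there (adjusted p = 0.259 and 0.695).

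The 13 falls became 8 without either hypoxia array, and the 3 rises became 1 without replicate 2 of hypoxia and 6 without replicate 2 of normoxia. MRPL6, MRPL8, MRPL25, MRPL39 and RSM18 stayed called in every alternative that was run.

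The treatments share no arrays, so their differences can be set side by side. Of the 54 genes 9 fell under both: MRPL6, MRPL8, MRPL9, MRPL25, MRPL35, MRPL36, MRPL50, RSM18 and RSM26. These are 16.7% of the 54, near the 13.1% of all genes that fell under both. They make up 47.4% of the 19 that fell without ALA and 69.2% of the 13 that fell in hypoxia, where for all genes the shares were 69.2% and 52.1%. Another 10 passed as falls without ALA alone, 4 as falls in hypoxia alone and 3 as rises in hypoxia alone. The 28 that passed in neither are 51.9% of the 54, against 29.4% of all genes, and none of the 54 rose under both, where 21.4% of all genes did. Across the 54 genes the log2 differences had a Pearson correlation of 0.505 and a Spearman correlation of 0.484, against a Pearson correlation of 0.757 across all genes. Genes are not independent replicates, so these describe the arrays. Both differences were negative for 27 of the 54 genes, against 32.7% of all genes, and 15 were negative only without ALA (27.8%, against 9.94%). For 7 only the hypoxia difference was negative (13.0%, against 12.9%), and 5 were positive in both (9.26%, against 44.4%).

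**Figure D3:**
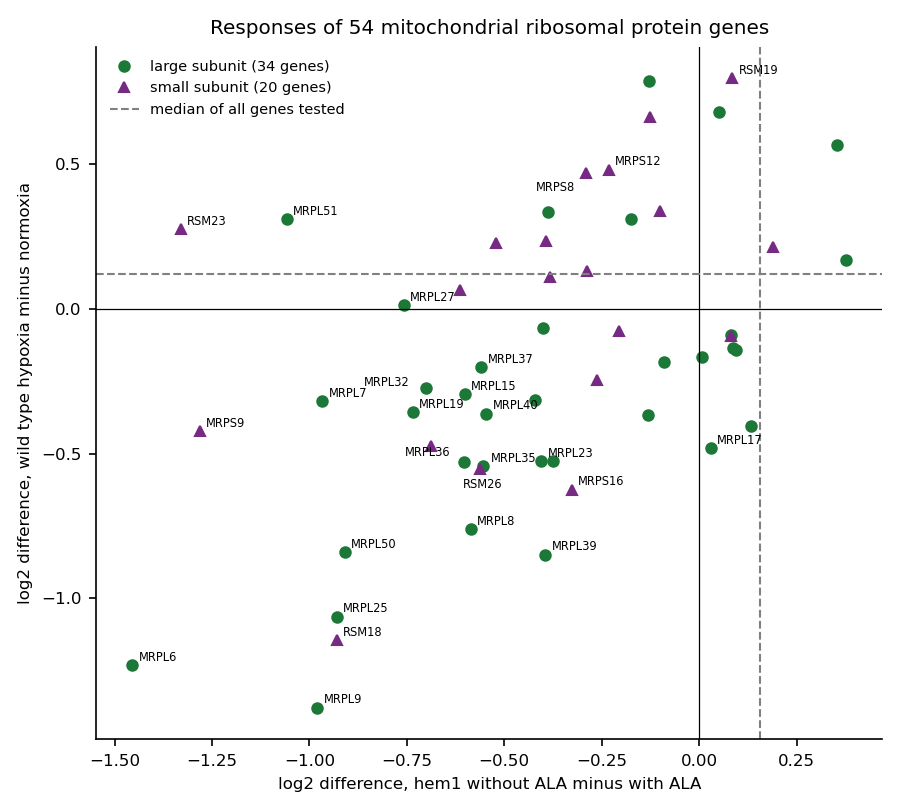
Log2 difference of each of the 54 genes between hem1 without and with ALA (x axis) and between hypoxia and normoxia (y axis), with large subunit genes as green circles, small subunit genes as purple triangles and genes called in either comparison named; dashed lines mark the median of all genes tested. MRPL6, MRPL9, MRPL25, RSM18 and MRPL50 lie at the lower left, RSM23 and MRPL51 at the upper left, and RSM19 at the top.

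The difference of the responses was tested in the same fit, as the change without ALA minus the change in hypoxia. None of the 54 genes passed in either direction, where 9.81% of all genes were higher and 6.45% lower, and at an unadjusted p under 0.05 there were 5 lower and 1 higher. Those 5 are 9.26% of the 54 and the 1 is 1.85%, both below the 13.2% and 18.7% of all genes. The estimates nearest to the threshold were those of MRPL51 (log2 -1.37, adjusted p = 0.0532), MRPS8 (-0.76, adjusted p = 0.0644), MRPS12 (-0.71, adjusted p = 0.0653) and RSM19 (-0.71, adjusted p = 0.0700). With arrays scaled on the spike-in probe sets these 4 genes passed as lower (adjusted p = 0.0387, 0.0291, 0.0318 and 0.0420). MRPL51 also passed with the filter at the 50th percentile (adjusted p = 0.0488), with averaged probe sets (0.0497) and without replicate 1 of normoxia (log2 -1.75, adjusted p = 0.0208). RSM23, whose signals without ALA lie below the 30th percentile, had an estimate of -1.61 (adjusted p = 0.103), which was -0.56 with signals held at that percentile (adjusted p = 0.166) and -2.29 without replicate 2 of the arrays without ALA (adjusted p = 0.0201). MRPL51 had 396 and 332 in hypoxia, against 380.4 and 225 in normoxia, so its groups overlap there. Without 1 array, between 0 and 4 of the 54 passed as lower, the 4 without replicate 1 of the arrays without ALA.

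The third comparison sets the control cultures against each other, hem1 with ALA over the wild type strain in normoxia. Here 3 of the 54 genes were higher and none lower, where 12.6% of all genes were higher and 9.14% lower. At an unadjusted p under 0.05, 13 genes were higher, a share of 24.1% near the 21.2% of all genes, and 0 were lower, against 15.5%. The median log2 difference was 0.22, against 0.06 for all genes, and it was -0.02 with arrays centred on their medians, against -0.17 for all genes. Both arrays with ALA lay above both in normoxia for 24 genes and below for 6, against 35.1% and 29.9% of all genes. This comparison shares its arrays with both others.

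MRPL1, the homolog of L1 at the mobile stalk beside the exit site, had 268 and 366 with ALA, against 176 and 154 in normoxia. It was 1.90-fold higher (log2 0.93, SE 0.24, adjusted p = 0.0280; 0.162 at most under the alternatives). RSM19, with the signals given above, was 1.69-fold higher with ALA than in normoxia (adjusted p = 0.0145), and MRPS12 was 1.57-fold higher (adjusted p = 0.0231). Both had also risen in hypoxia against the same normoxia arrays. The 3 calls became 1 without replicate 1 of the arrays with ALA and 0 without replicate 2, and 5 without replicate 1 or 2 of the arrays without ALA or replicate 2 of normoxia.

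The 28 genes that passed in neither treatment held 16 of the large and 12 of the small subunit. They include MRPL33, the homolog of L30, with 1213 and 1371 without ALA, 1685 and 1259 with ALA, 1066 and 1278 in hypoxia and 795 and 1111 in normoxia, which overlaps in both treatments. RSM22, for a protein related to methyltransferases, lay below the 30th percentile on 1 of the arrays without ALA, with 63.8 and 43.3 without ALA, 66.5 and 55.2 with ALA, 46.4 and 49.6 in hypoxia and 47.9 and 53.2 in normoxia. MRPL4, the homolog of L29, had the highest estimate without ALA, with 551 and 454 against 378 and 392 with ALA, and did not pass (log2 0.38, SE 0.17, adjusted p = 0.0937). MRPL44 (mL53) is the only gene of the 54 with a second probe set, which lay below the 30th percentile on both arrays without ALA and both in hypoxia. Its log2 differences without ALA were -0.13 and -0.88 at the brighter and the dimmer probe set, and neither passed. In hypoxia the 2 probe sets had opposite signs, 0.79 and -0.27, and neither passed.

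Spread between arrays of a group bounds what could pass. The median absolute log2 difference between the 2 arrays over the 54 genes was 0.20 without ALA, 0.13 with ALA, 0.18 in hypoxia and 0.16 in normoxia, against 0.19 to 0.22 for all genes. Without ALA 13 genes differed by over 1.5-fold between the arrays, 8 of them lower on replicate 2, and MRPS9, RSM10 and RSM23 differed most. In normoxia MRPS28, RSM24 and MRPS18 differed most, and MRPS28 had 656 and 220.3 there.

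Proteins with a bacterial homolog and those of the mitochondrial ribosome alone, as RefSeq's synonyms class them, are given here by their counts. Of 33 genes with a homolog 11 (33.3%) fell without ALA, and of the 20 with no homolog 8 (40%) fell, against 19.0% of all genes. Their median log2 differences were -0.39 and -0.46. In hypoxia 9 (27.3%) fell and 3 (9.09%) rose of the 33, and 4 (20%) fell and none rose of the 20. Of all genes 25.2% fell and 31.4% rose there. RSM22 has no such synonym. Split at the middle of their mean signals, 371, the genes held 10 falls without ALA among the brighter and 9 among the dimmer.

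Genes of the mitochondrial ribosome under other symbols were counted in a separate list of 26, of which 24 were tested. Without ALA 6 (25%) fell and 1 (4.17%) rose, where 19.0% of all genes fell and 31.2% rose. In hypoxia 5 (20.8%) fell and 4 (16.7%) rose, against 25.2% and 31.4% of all genes. Of those tested MRP8, GEP3, CBP6 and PPE1 have no mitochondrial ribosomal protein name in RefSeq. With these 4 left out, a choice made after the values were seen, 5 of 20 (25%) fell and 1 (5%) rose without ALA. In hypoxia 5 (25%) of the 20 fell and 2 (10%) rose. MRP2, the homolog of S14, fell 1.95-fold without ALA, with 637 and 668 against 1139 and 1417 with ALA (adjusted p = 0.00201). MRP10 fell in hypoxia, to 562 and 537 in hypoxia, against 1026 and 1029 in normoxia (1.87-fold, adjusted p = 0.00122). YML6, the homolog of L4, went the other way, with 406 and 427 without ALA, against 272 and 266 with ALA, and 352 and 461 in hypoxia, against 206 and 179 in normoxia. It rose 1.55-fold and 2.10-fold (adjusted p = 0.0209 and 0.00146), and the first of these calls was lost without any 1 of the 4 hem1 arrays (adjusted p up to 0.0811) and with median centring (0.320).

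A second set, chosen after these values were seen, holds the 27 genes to which RefSeq gives a mitochondrial ribosomal name and which are not among the 54, and 25 were tested. It adds MNP1, the homolog of the stalk protein L12, with 258 and 352 without ALA, against 1016 and 745 with ALA, and 389 and 310.4 in hypoxia, against 777 and 754 in normoxia. MNP1 fell 2.89-fold without ALA and 2.20-fold in hypoxia (adjusted p = 0.000888 and 0.00303). In this set 6 (24%) fell and 3 (12%) rose without ALA, where 19.0% of all genes fell and 31.2% rose. In hypoxia 6 (24%) fell and 4 (16%) rose, against 25.2% and 31.4% of all genes. MRX14, the annotated neighbour of MRPL1, was its 1 gene with a difference between the responses (log2 -1.18, adjusted p = 0.0274; lost in 8 of 18 alternatives), with 1092 and 1145 without ALA, 1556 and 1598 with ALA, 1252 and 1161 in hypoxia and 931 and 605 in normoxia.

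The cytosolic ribosomal protein genes, 81 by their symbols RPL, RPS and RPP, were counted as the family most like them. That symbol rule also takes RPP1, a subunit of RNase P. Without ALA 61 (75.3%) fell and 1 (1.23%) rose, with a median log2 difference of -0.68. In hypoxia 67 (82.7%) fell and 2 (2.47%) rose, with a median of -0.88. The shares that fell were 19.0% and 25.2% for all genes, and 35.2% and 24.1% for the 54. After quantile normalization the order of the medians without ALA turned, with -0.65 for the 54 mitochondrial genes and -0.48 for the 81. In hypoxia the cytosolic median was the lower of both as deposited and after quantile normalization (-0.60, against -0.49 for the 54). Median centring and spike scaling shift all genes of an array alike and cannot change this order.

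**Figure D4:**
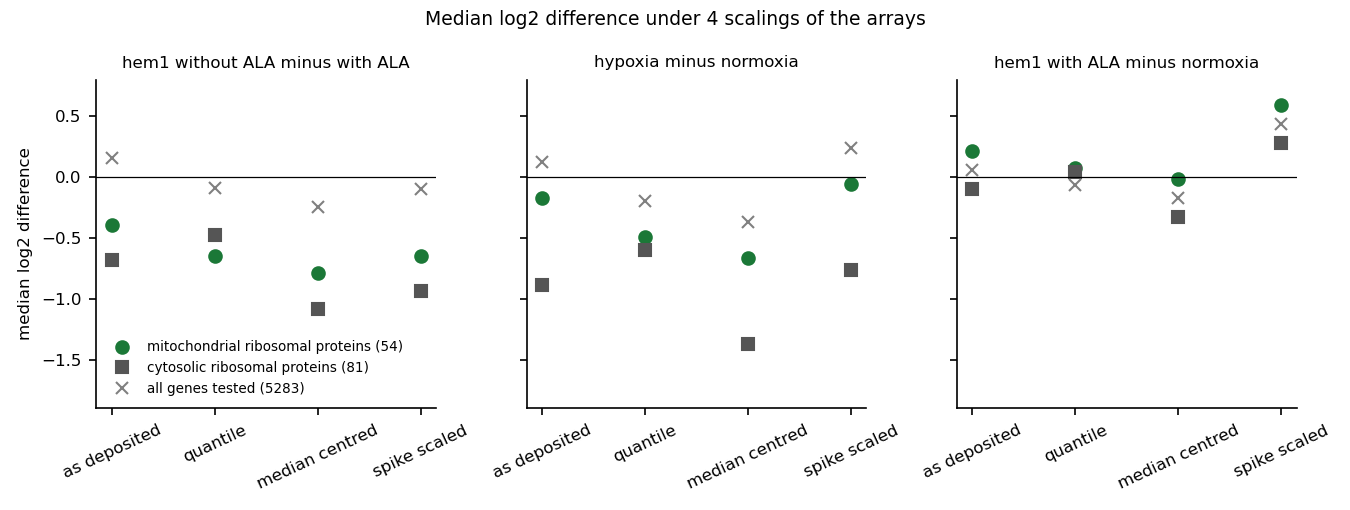
Median log2 difference of the 54 mitochondrial ribosomal protein genes (green circles), 81 cytosolic ones (grey squares) and all 5283 genes tested (crosses) in 3 comparisons, with signals as deposited, quantile normalized, centred on each array's median, or scaled on spike-in probe sets. The mitochondrial genes lie below all genes in both treatments and above them between the control cultures, as deposited and after quantile normalization. Centring and spike scaling shift all genes of an array alike, so they cannot change the distance between these medians.

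Other genes of mitochondrial translation were counted from lists. Of all genes tested, 31.2% rose and 19.0% fell without ALA, and 31.4% rose and 25.2% fell in hypoxia. Of 13 mitochondrial tRNA synthetases 3 (23.1%) rose and none fell without ALA, and 5 (38.5%) rose and 1 (7.69%) fell in hypoxia. MSK1, for lysine, rose 1.75-fold without ALA, with 809.7 and 913 against 502 and 481 with ALA (adjusted p = 0.0163). MSD1, for aspartate, rose 2.23-fold in hypoxia, with 425 and 499.9 against 208 and 207 in normoxia (adjusted p = 0.000879). Of 11 translation factors tested 2 (18.2%) rose and 3 (27.3%) fell without ALA, and 4 (36.4%) rose and 2 (18.2%) fell in hypoxia. RRF1, the ribosome recycling factor, fell 2.22-fold without ALA and 1.92-fold in hypoxia (adjusted p = 0.00577 and 0.0123; the second 0.0892 without replicate 2 of hypoxia and 0.0580 without replicate 2 of normoxia). The call of MSK1 was lost with median centring (log2 0.41, adjusted p = 0.119) and spike scaling (0.55, adjusted p = 0.0976). It was also lost without replicate 2 of the arrays without ALA (log2 0.72) and without replicate 1 (0.84) or 2 (0.78) of those with ALA. Without both arrays bright for 18S it was lost too (log2 0.89).

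Among 15 translational activators tested 4 (26.7%) rose and none fell without ALA, and 5 (33.3%) rose and 2 (13.3%) fell in hypoxia. The shares that rose are near the 31.2% and 31.4% of all genes. ATP22, an activator of an ATP synthase message, had 307 and 285 without ALA, against 129 and 147 with ALA, and 314 and 362 in hypoxia, against 126 and 142 in normoxia. It rose 2.15-fold and 2.52-fold (adjusted p = 0.00133 and 0.000378). Of 13 genes for assembly of the mitochondrial ribosome, RSM22 among them, 3 (23.1%) rose and 2 (15.4%) fell without ALA. In hypoxia 6 (46.2%) of these 13 rose and 1 (7.69%) fell. MSS116, a helicase, fell 1.64-fold and 1.53-fold (adjusted p = 0.00481 and 0.00825), and MRM2, which methylates the large ribosomal RNA, rose 1.76-fold and 2.55-fold (adjusted p = 0.0180 and 0.00138). In mitochondrial transcription and RNA processing 1 of 9 genes (11.1%) rose and 1 (11.1%) fell without ALA, and 2 (22.2%) rose and 1 (11.1%) fell in hypoxia. RPO41, the mitochondrial RNA polymerase, rose in both treatments, with log2 differences of 0.58 and 1.26 (adjusted p = 0.0184 and 0.000367). Without ALA the calls of MRM2 and RPO41 were lost under quantile normalization (adjusted p = 0.188 and 0.185) and median centring (0.189 and 0.371). They were also lost without either array without ALA and, for MRM2, without replicate 2 (0.0870) or, for RPO41, without replicate 1 (0.106) of those with ALA. In hypoxia the call of MSS116 was lost with spike scaling (log2 -0.50, adjusted p = 0.0794). It was also lost without replicate 2 of normoxia (log2 -0.50) and without both arrays bright for 18S (log2 -0.58).

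**Figure D5:**
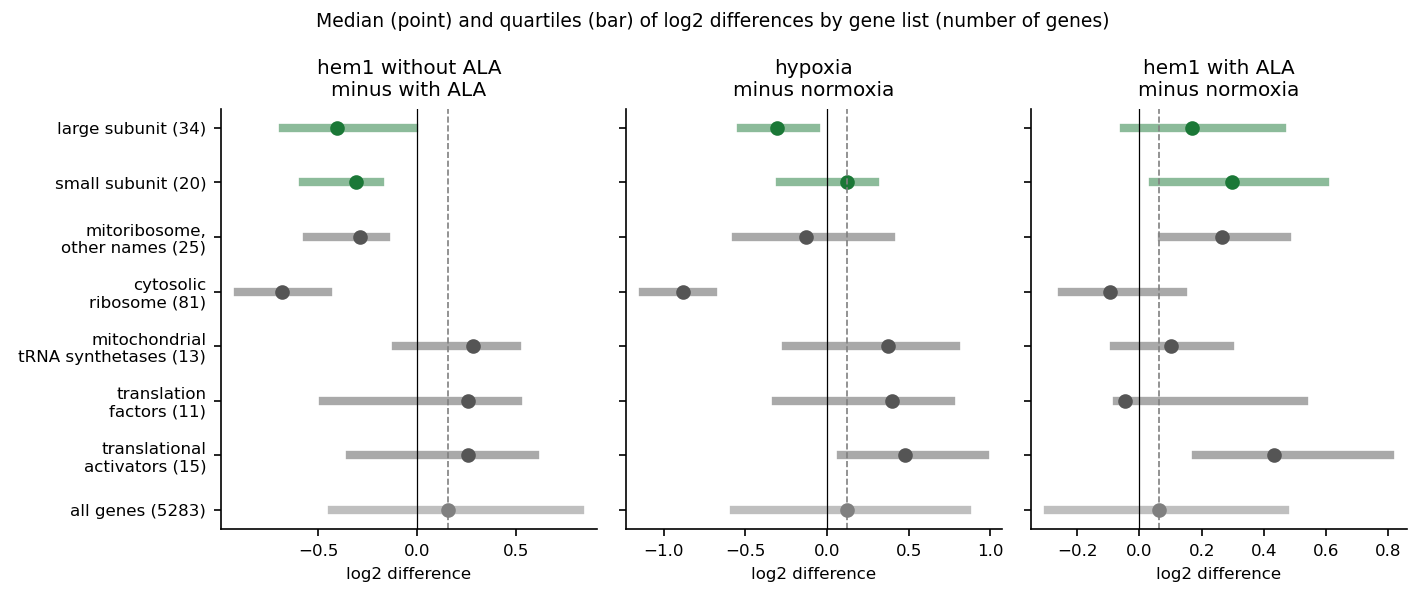
Median (point) and quartiles (bar) of the log2 differences of each gene list in 3 comparisons, with the number of genes tested in brackets and the 25 with a RefSeq mitochondrial ribosomal name as other names; the dashed line is the median of all genes tested. Both subunits and the cytosolic ribosome lie left of that line without ALA, the small subunit lies on it in hypoxia at 0.12, and the synthetases, factors and activators lie right of it in both treatments.

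Regulators tied to these genes were measured on the same arrays. HAP4, the activating subunit of the Hap2/3/4/5 complex, had 118 and 164 without ALA, against 348 and 343 with ALA, and 214 and 211 in hypoxia, against 175 and 194 in normoxia. It fell 2.49-fold without ALA (adjusted p = 0.000946), did not pass in hypoxia (log2 0.20, adjusted p = 0.400), and its responses differed (log2 -1.52, adjusted p = 0.00949; -1.29 and 0.0594 once both arrays bright for 18S were dropped). HAP4 was also 1.88-fold higher with ALA than in normoxia (adjusted p = 0.0140), so its control levels differed between the treatments. The 3 probe sets of HAP1 went in different directions without ALA, with log2 differences of 2.01, -1.26 and -1.58. PUF3 lay below the 30th percentile on all 8 arrays and was not tested. Of 9 regulators tested 2 (22.2%) rose and 3 (33.3%) fell without ALA, where 31.2% of all genes rose and 19.0% fell. In hypoxia 2 (22.2%) of the 9 rose and 1 (11.1%) fell, against 31.4% and 25.2% of all genes. These counts take HAP1 at its brightest probe set, as a fall without ALA (log2 -1.26) and with no call in hypoxia (0.41). That set is of a kind that can bind related sequences. The HAP1 probe set not of that kind rose without ALA (2.01) and in hypoxia (2.31), so the counts depend on this choice. SFP1, an activator of ribosomal protein genes of the cytosol, rose 2.10-fold and 3.25-fold (adjusted p = 0.00433 and 0.000329).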

How the data were processed

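The authors deposited 1 linear intensity per probe set and array. These come from MAS5 (submitters' processing notes, no version named). The table held 9335 probe sets, 60 of them controls. Of the other 9275, 6504 had 1 gene in the platform annotation, 328 several and 2443 none. RefSeq gave gene names, synonyms and the order of genes along each chromosome, from which neighbours were taken. No coordinates or sequences are printed, and no sequence was used here. A gene is represented by its probe set with the highest mean. Probe sets above the 30th percentile of their array on at least 2 of 8 arrays were tested (7081, 5283 genes).

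The fit used log2 signals, limma 3.58.1 (R 4.3.3), a mean for each group over all 8 arrays and an intensity trend (4 residual and 4.36 prior degrees of freedom). Tests were two-sided, with Benjamini-Hochberg adjustment over the 7081 probe sets and a threshold of 0.05, and the fit was tested on simulated data. Every adjusted p is from limma. The median log2 signal of the arrays was 0.40 higher without than with ALA, 0.49 higher in hypoxia against normoxia, and 0.23 higher with ALA against normoxia, at equal trimmed means, so medians are given beside those of all genes. Alternatives were quantile normalization, median centring, scaling on 9 spike-in probe sets, other filters, a floor at the 30th percentile, averaged probe sets, no trend, the arrays of 1 comparison alone, and leaving out arrays.

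The members and lists were chosen with earlier results of these data known. Genes named are up to 8 members per treatment and direction with the largest calls whose arrays did not overlap, up to 5 for the other contrasts, the 3 brightest and 3 dimmest members, genes with more than 1 probe set, fixed members and regulators, and up to 2 per list and direction by adjusted p; other called members are named without full statistics. The fixed members are MRPL32, MRPS12, RSM23 and RSM26, and MRPL33, MRPL4, MRPL20, MRPL19, MRPL37, RSM10, MRPS28, RSM24, MRPS18, IMG1 and VAR1 were named after their values were seen.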

Additional observations from a re-analysis of the deposited data

Results flagged for a closer look

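None of the 54 genes passed the test of the difference as reported. Genes of the other lists did, by the limma test of the change without ALA minus the change in hypoxia. Of all genes tested, 9.81% were higher and 6.45% lower by this test. Lower were 3 of 9 regulators, 2 of 9 genes of transcription and RNA processing, and 1 each of 13 synthetases, 15 activators, 13 assembly genes and 25 genes with a RefSeq ribosomal name. Higher were 1 of 11 translation factors and 1 of the 9 genes of transcription and RNA processing. Lower without ALA relative to hypoxia were NCA3, tied to the expression of mitochondrial ATP synthase subunits (log2 -2.36), SUV3, the helicase of the mitochondrial RNA degradosome (-2.01), HAP1 at its brightest probe set (-1.67, a set of a kind that can bind related sequences), HAP4 (-1.52), MSY1, the mitochondrial synthetase for tyrosine (-1.42), RPM2, of mitochondrial RNase P (-1.18), MRX14 (-1.18), IFH1, a coactivator of cytosolic ribosomal protein genes (-1.07), and MRH4, a helicase of large subunit assembly (-0.91). AIM23, a mitochondrial initiation factor (1.30), and PET127, of mitochondrial RNA processing (0.81), were higher. Adjusted p-values ran from 0.00667 for HAP1 to 0.0468 for PET127. Of HAP1's other probe sets, 1 of the same kind had -2.09 (adjusted p = 0.0140), and the 1 not of that kind rose in both treatments (2.01 and 2.31) with a difference of -0.29 (adjusted p = 0.362). Over 18 alternatives the call at the brightest HAP1 probe set was lost in 0, those of HAP4 and NCA3 in 1 (without both arrays bright for 18S), those of AIM23, IFH1 and MSY1 in 3, RPM2 in 5, SUV3 in 7, MRH4 and MRX14 in 8 and PET127 in 13.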

How the results depend on the processing

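The 54 genes kept the direction of their median, relative to all genes, under every alternative run. Median centring, spike scaling, no trend and the arrays of 1 comparison alone leave that distance unchanged by construction, so they do not test it. The share of all genes that passed also moved with the scaling. Without ALA 26.7% of all genes fell after quantile normalization and 33.9% after median centring, against 53.7% and 63% of the 54. Without ALA, the 19 falls became 29 after quantile normalization and 34 after median centring, with all 19 shared, and 9 to 18 without 1 array. With both arrays bright for 18S dropped (hem1 without ALA replicate 1 and hypoxia replicate 2) there were 14, 12 of them shared. The member median minus that of all genes was -0.55, -0.46 without those 2 arrays, and -0.60 to -0.47 without 1 array. In hypoxia the 13 falls became 26, 30 and 7 with quantile normalization, median centring and spike scaling, 8 without the 2 arrays, and 8 to 13 without 1 array. The 3 rises became 0 with median centring, 2 with quantile normalization, 1 with only the arrays of the comparison, 1 without the 2 arrays, and 1 to 6 without 1 array. In hypoxia the shares of all genes that fell were 33.4%, 41.3% and 18.7% with quantile normalization, median centring and spike scaling. Those of the 54 were 48.1%, 55.6% and 13%. Of all genes 21.6% rose in hypoxia with quantile normalization and 18.1% with median centring. The hypoxia median of the 54 minus that of all genes, -0.30, was -0.21 with the filter at the 50th percentile. In the difference of the responses the 0 lower genes became 4 with spike scaling, 1 with the 50th percentile filter, 1 with averaged probe sets, 2 without the 2 arrays and 0 to 4 without 1 array, and its median minus that of all genes, -0.29, was -0.31 to -0.22 without 1 array and -0.32 with the 50th percentile filter and without the 2 arrays. Between the control cultures the 3 higher genes became 0 with median centring, which also made 1 lower, 15 with spike scaling, and 0 to 5 without 1 array, with the median minus that of all genes at 0.12 to 0.23. Of all genes 27.1% were higher there with spike scaling, near the 27.8% of the 54. With median centring 7.34% of all genes were higher and 17.8% lower. With that centring MRPS12 (-0.00693, adjusted p = 0.972) and MRPS8 (-0.0172, adjusted p = 0.939) in hypoxia and MRPL17 without ALA (-0.37, adjusted p = 0.0486) turned sign. Median centring lowers every log2 difference by the shift of the array medians, 0.49 in hypoxia and 0.40 without ALA. Any smaller positive difference turns sign with it. Of the single-gene values 3663 kept their side of the threshold, 285 lost a call and 83 gained one. Only the arrays of a comparison gives no value for the difference of the responses, which needs all 8. No paired analysis was possible because the labels give the samples no shared replicate numbers. Genes near the 30th percentile, such as RSM23 and RSM22, have the least signal over background.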

Other observations

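VAR1, the ribosomal protein encoded in the mitochondrial genome, lay below the 30th percentile on all 8 arrays, with signals of 19.4 and 5.1 without ALA, 9.7 and 1.2 with ALA, 1.1 and 0.1 in hypoxia and 1.3 and 0.7 in normoxia, and was not tested. IMG1, a large subunit protein outside the 54, had 1188 and 1373 without ALA, 1890.0 and 1865 with ALA, 1223 and 1369 in hypoxia and 1304 and 562 in normoxia. Its normoxia arrays lay apart, and it was higher with ALA than in normoxia (2.19-fold, adjusted p = 0.0432). AIM23 was at 166 and 155 without ALA, 137 and 132 with ALA, 102 and 126 in hypoxia and 222 and 245 in normoxia, a 2.06-fold fall in hypoxia (adjusted p = 0.00168).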
